A study of Arabidopsis thaliana with 15 samples.

Results

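The sulfur genes examined here are 10 loci of Arabidopsis thaliana, chosen by a list of locus identifiers that was drawn up with earlier results of these data known. They are 3 APS reductases (APR1, APR2 and APR3), 3 markers of sulfur starvation (LSU1, LSU2 and SDI1), 3 sulfate transporters (SULTR1;1, SULTR1;2 and SULTR4;2) and the glutathione-degrading enzyme GGCT2;1. Of the 10, 7 have a row among the 14391 genes of the table, and 6 passed the filter on low counts that left 9891 genes for testing. SULTR1;1, SULTR4;2 and GGCT2;1 have no row in the table used here and were not analysed. SDI1 has a row but too few counts for the test, and is given by its counts.

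Roots of wild-type seedlings (ecotype Columbia-0, age 7 d, 30 to 50 seedlings in each biological replicate) were placed in aqueous solution and their RNA was read near the 3′ end of transcripts with MARS-seq, a tag-counting form of RNA-seq. The 5 groups of 3 libraries were water, 10 µM Rose Bengal (RB) with exposures of 1 h, 2 h or 3 h, and a 2 h combined treatment (RBH) of 5 mM H2O2 with 10 µM of what the label calls MRB, an abbreviation the sources used here do not explain. Rose Bengal is a dye that makes singlet oxygen in light, and H2O2 is a second reactive oxygen species. The water libraries are labelled 1 h, although their titles carry a 0, so at 2 h and 3 h the treatment and the time in solution changed together against water.

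Plants take up sulfate through SULTR transporters, activate it with ATP sulfurylase (APS) and reduce it with APS reductase (APR) and sulfite reductase (SIR). Serine acetyltransferases (SERAT) supply O-acetylserine, the carbon skeleton that takes up the sulfide to make cysteine, and GSH1 then starts the synthesis of glutathione, the main thiol that buffers the redox state of plant cells. When sulfur runs short, APR genes, transporters and a set of small starvation genes (LSU and SDI) are known to rise, and APR is also known to respond to oxidative stress and to the demand for glutathione.

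Library totals ran from 897728 to 6230975 counts, and levels are given as CPM, the counts scaled to a common total after TMM normalization, so that 1 count was worth 0.176 to 1.19 CPM. RB 1 h replicate b and RB 2 h replicate a stood apart from the other libraries on the third principal component, at -30.23 and -46.83 against -12.09 to 18.97. Without both, the members called were 2 at RB 1 h, 5 at RB 2 h, 5 at RB 3 h and 6 in RBH against water. The added member in RBH was SDI1, which passed the filter without both but not in the fit of all libraries. Most of its counts lie in RBH (123, against 3 in water), so its entry adds no support to the count of members called. SULTR1;2 was not called. Over all genes, the fit without both called 1104 at RB 1 h against water, where the fit of all libraries called 533. The 17 shoot green tissue markers together took 0.0243% to 0.0872% of counts over all libraries, highest in RBH replicate c, and none was at 0 throughout a group. The root markers (PYK10, TIP2;3, SHV2, EXPA7 and EXPA18) were present in every group. Their summed share was 0.0835% to 0.109% in water and 0.0673% to 0.087% at RB 1 h. It was lower at RB 2 h (0.0278% to 0.0391%), at RB 3 h (0.015% to 0.0213%) and in RBH (0.0126% to 0.0301%). TIP2;3 weighs most in this sum, with up to 1000.2 CPM in a library against up to 105 CPM for PYK10 and less for the others. In bulk roots, a change in the cells present and a change in RNA per cell cannot be told apart, and the part of these shifts in the results was not tested.

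The DNA just before 4 of these genes is shown, picked with their values known. LSU1, LSU2 and APR3 had the largest log2 fold changes of the tested members in RBH against water, and SDI1 is the remaining starvation marker. Each is the 250 bases before the annotated gene start, 5′ to 3′ on the gene's strand, read from RefSeq TAIR10.1 by locus. The positions are chr3:18375941-18376190 for LSU1, chr5:8444102-8444351 for LSU2, chr4:11659168-11659417 for APR3 and chr5:19807854-19808103 for SDI1, all on the minus strand. No source used here names the build behind the counts. Capitals mark matches, on either strand, to GAGAC, the core of a known sulfur-responsive element, or TGACG, a core bound by TGA-type bZIP factors.
LSU1: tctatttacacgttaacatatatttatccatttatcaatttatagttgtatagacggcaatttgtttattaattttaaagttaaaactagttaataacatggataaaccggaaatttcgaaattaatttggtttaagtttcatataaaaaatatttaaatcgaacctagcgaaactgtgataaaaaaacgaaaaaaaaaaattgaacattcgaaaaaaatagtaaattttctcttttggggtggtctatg
LSU2: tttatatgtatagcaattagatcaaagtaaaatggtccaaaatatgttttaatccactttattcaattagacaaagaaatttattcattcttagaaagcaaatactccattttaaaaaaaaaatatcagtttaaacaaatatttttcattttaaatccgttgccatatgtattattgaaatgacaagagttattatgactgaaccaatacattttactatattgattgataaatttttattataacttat
APR3: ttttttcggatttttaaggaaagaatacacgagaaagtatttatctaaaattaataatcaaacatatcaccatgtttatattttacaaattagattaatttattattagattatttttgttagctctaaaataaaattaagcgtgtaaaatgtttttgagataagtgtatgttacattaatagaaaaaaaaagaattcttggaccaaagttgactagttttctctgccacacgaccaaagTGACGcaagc
SDI1: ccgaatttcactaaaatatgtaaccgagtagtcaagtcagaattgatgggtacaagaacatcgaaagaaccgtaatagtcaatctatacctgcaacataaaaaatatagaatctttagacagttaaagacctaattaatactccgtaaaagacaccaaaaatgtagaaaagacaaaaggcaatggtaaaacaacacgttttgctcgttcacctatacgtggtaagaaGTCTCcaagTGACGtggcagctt

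SDI1 carried GAGAC on the opposite strand, its first base 23 bases before the gene start, and TGACG at 14 bases. APR3 carried TGACG at 10 bases. Over the 10 loci, GAGAC was found in 2 windows (SDI1 and GGCT2;1), against 24.2% of the 9873 windows of tested genes, and TGACG in 3 (SDI1, APR3 and SULTR1;2), against 19.1%. No listed gene held CACGTG, the G-box, which 7.77% of the windows held. The windows of LSU1, LSU2, APR1 and APR2 held none of these 3 motifs, which says only that the letters are not in these 250 bases. The neighbour of LSU1 on chromosome 3 is its relative LSU3, and that of LSU2 on chromosome 5 is LSU4. In the last 500 bases of the annotated transcripts, no stretch of 50 bases of any listed gene recurred exactly elsewhere in the genome. APR1, APR2 and APR3 overlap genes on the opposite strand, by 21 bases for APR1, by 225 and 782 bases for APR2 and by 27 bases for APR3. Whether counting used strand is not given, and the partners with a row (of APR1 and APR3) had mean levels of at most 2.03 and 5.61 CPM in any group.

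LSU1 (AT3G49580, RESPONSE TO LOW SULFUR 1), a small coiled-coil protein used as a marker of sulfur starvation, was the member with the largest rise. Its levels were 4.77, 5.98 and 16.0 CPM in the water libraries, 60.5, 55.2 and 90.8 CPM after RB for 1 h, 464.5, 340 and 339 CPM after 2 h, 295, 328 and 529 CPM after 3 h and 1333, 1332 and 975 CPM in RBH. The RB 2 h and RB 3 h ranges overlapped, while every other pair of groups was separate. The mean rose from 8.90 ± 6.14 CPM (SD, n = 3) in water to 68.8 ± 19.2 at RB 1 h (log2 fold change 2.82, SE 0.36, adjusted p = 1.81e-05 by the quasi-likelihood test of edgeR with Benjamini-Hochberg adjustment), which ranked 91 of 9891 genes from the highest log2 fold change. At RB 2 h it reached 381 ± 72.1 CPM (5.27, SE 0.35, adjusted p = 3.15e-10), and in RBH 1213.5 ± 207 CPM (6.95, SE 0.36, adjusted p = 3.82e-12, rank 35). Water replicate c was the highest of its group, and without it these log2 fold changes were 3.64, 6.10 and 7.78.

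LSU2 (AT5G24660), a close relative of LSU1, followed another course at first. It stood at 27.45, 15.7 and 49.0 CPM in water and at 32.9, 20.7 and 30.9 CPM after RB for 1 h, and these ranges overlapped (log2 fold change -0.12, 95% interval -0.72 to 0.48, adjusted p = 0.860). After 2 h the levels were 167, 152 and 144 CPM and after 3 h 190, 211 and 261 CPM. The RBH libraries, at 782, 913 and 715 CPM, lay above every other library. LSU2 rose at RB 2 h (2.29, SE 0.27, edgeR adjusted p = 1.01e-06), at RB 3 h (2.80, adjusted p = 3.23e-08) and in RBH (4.67, adjusted p = 1.71e-11), and without water replicate c these 3 values were 2.89, 3.40 and 5.27.

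SDI1 (AT5G48850, SULFUR DEFICIENCY INDUCED 1), known to repress glucosinolate synthesis under low sulfur, was near the limit of detection. It had 0, 0 and 3 counts in water, 11, 1 and 3 at RB 1 h, 1, 3 and 2 at RB 2 h, 7, 9 and 3 at RB 3 h, and 8, 26 and 89 in RBH. On the CPM scale the RBH libraries, at 6.13, 16.8 and 15.7, lay above the highest of the others, at 4.54. The ratio of RBH to water over summed counts was 18.9 (95% exact counting interval 6.32 to 92.9), and that of RBH to RB 2 h was 13.3 (5.92 to 36.8). These intervals cover counting error only. Without the low-count filter, edgeR called SDI1 higher in RBH than in water (adjusted p = 5.69e-05) and than in RB 2 h (adjusted p = 0.000186). In RB 1, 2 and 3 h against water that fit gave adjusted p values of 0.435, 0.804 and 0.177. With each of the 15 libraries left out in turn and the filter kept, SDI1 passed the filter in 13 fits. It did not pass without RBH replicate b or without RBH replicate c, the libraries with 26 and 89 of its counts. SDI1 was called in RBH against water and against RB 2 h in all 13 (adjusted p of 3.92e-05 to 0.00241 and of 0.000121 to 0.0084). Whether these calls hold without either of those RBH libraries was therefore not tested. At RB 3 h against water it was called in 1, without water replicate c (adjusted p = 0.0397, against 0.0397 to 0.431 over these fits), where the 2 water libraries left have 0 counts.

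**Figure D1:**
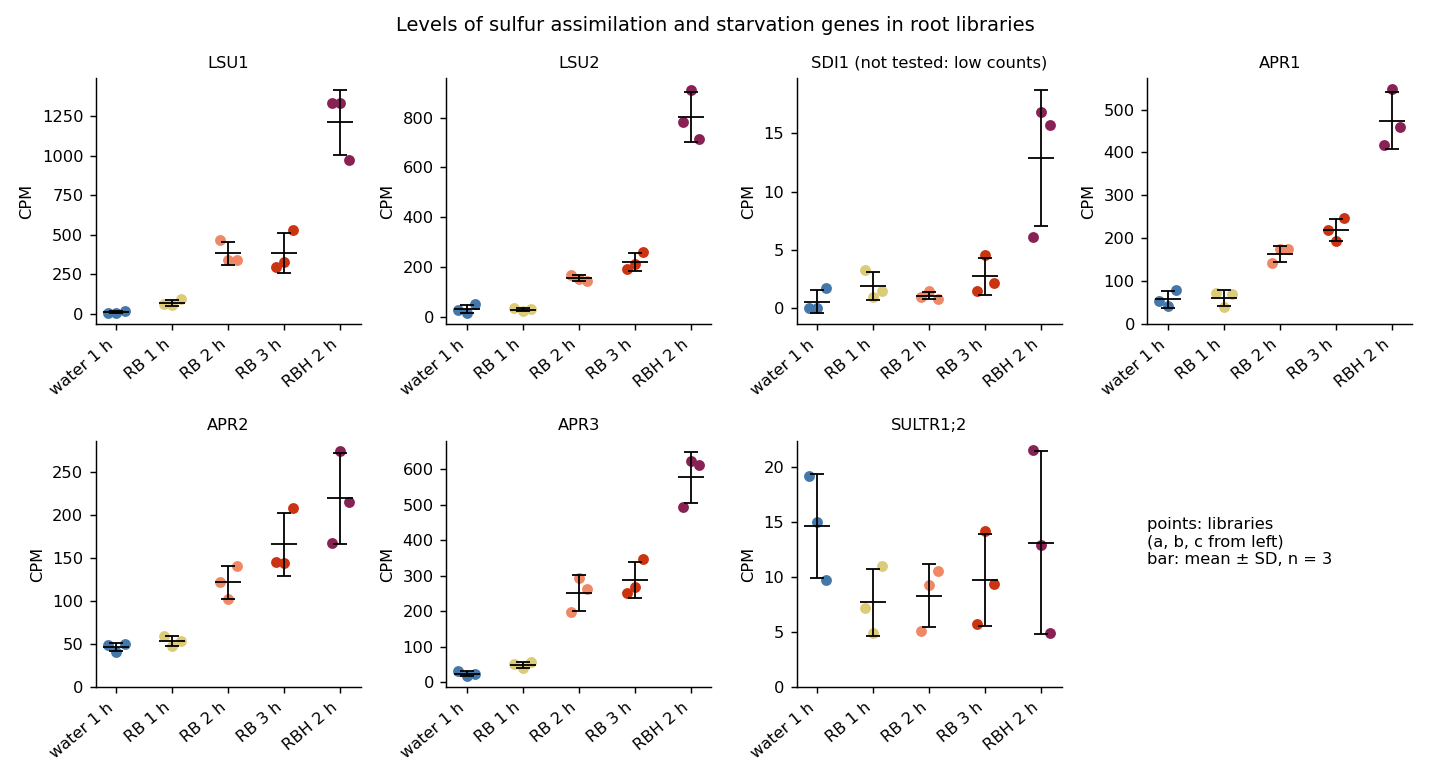
Levels (CPM, linear axis that includes 0, own scale for each gene) of the 7 genes with a row, by group. Points are libraries and bars the mean ± SD of n = 3. LSU1, LSU2 and APR1, APR2 and APR3 climb from water to the longer RB times and are highest in RBH by mean, while the SULTR1;2 ranges overlap.

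APR3 (AT4G21990) was the APS reductase gene with the largest change; these enzymes, in plastids, catalyse the step held to control the flux of sulfate into cysteine. Its levels were 31.0, 18.7 and 23.4 CPM in water, 50.9, 40.4 and 55.9 after RB for 1 h, 196.5, 294 and 263 after 2 h, 252, 268 and 347 after 3 h, and 494, 621 and 612 in RBH. The groups were separate except RB 2 h and RB 3 h. Against water APR3 rose at 1 h (log2 fold change 1.06, SE 0.24, edgeR adjusted p = 0.00824), at 2 h (3.40, SE 0.24, adjusted p = 1.88e-10), at 3 h (3.59, adjusted p = 4.68e-11) and in RBH (4.59, SE 0.24, adjusted p = 1.2e-12). The call at 1 h was lost without water replicate b (0.93, adjusted p = 0.0616) or c (1.04, adjusted p = 0.0546), with adjusted p of 0.00228 to 0.0616 over the alternatives.

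APR1 (AT4G04610) stood at 53.7, 41.8 and 79.8 CPM in water and at 73.7, 40.4 and 71.3 CPM after RB for 1 h, which overlap. It then reached 142, 175 and 174 CPM at 2 h, 220.1, 195 and 246 CPM at 3 h and 416, 547 and 459 CPM in RBH. Its log2 fold changes over water were 0.10 at 1 h (95% interval -0.40 to 0.59, edgeR adjusted p = 0.867), 1.47 at 2 h (SE 0.24, adjusted p = 4.77e-05), 1.90 at 3 h (adjusted p = 1.01e-06) and 3.00 in RBH (SE 0.24, adjusted p = 8.86e-10).

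APR2 (AT1G62180), the isoform known for most of the APS reductase activity in Arabidopsis, showed the smallest change of the 3 in RBH. Its libraries stood at 48.9, 41.1 and 50.2 CPM in water, 59.3, 48.3 and 53.9 at 1 h, 122, 103 and 141 at 2 h, 145, 144 and 208.5 at 3 h, and 168, 274.5 and 216 in RBH. Water and RB 1 h overlapped, and so did RB 3 h and RBH. Over water the log2 fold change was 0.22 at 1 h (95% interval -0.25 to 0.68, edgeR adjusted p = 0.641), 1.39 at 2 h (SE 0.22, adjusted p = 4.39e-05), 1.82 at 3 h (adjusted p = 6.26e-07) and 2.23 in RBH (SE 0.22, adjusted p = 2.72e-08).

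The make-up of the APR counts within each library does not depend on the scaling between libraries. APR3 supplied 15.2% to 23.2% of the counts of the 3 genes in water, 27.7% to 31.3% after RB for 1 h, 42.7% to 51.4% after 2 h, 40.8% to 44.1% after 3 h and 43.1% to 47.6% in RBH. APR2 went from 32.7% to 40.4% in water to 15.6% to 19.0% in RBH. Of LSU1 and LSU2 together, LSU1 held 14.8% to 27.6% in water and 64.7% to 74.6% after RB for 1 h, without overlap. In RBH it held 57.7% to 63.0%. The water values of LSU1 rest on 27 to 114 counts of both genes, with exact binomial 95% intervals from 4.19% to 47.2%. With 3 libraries against 3, an exact two-sided permutation test cannot go below p = 0.1, so these shares are given as ranges.

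**Figure D2:**
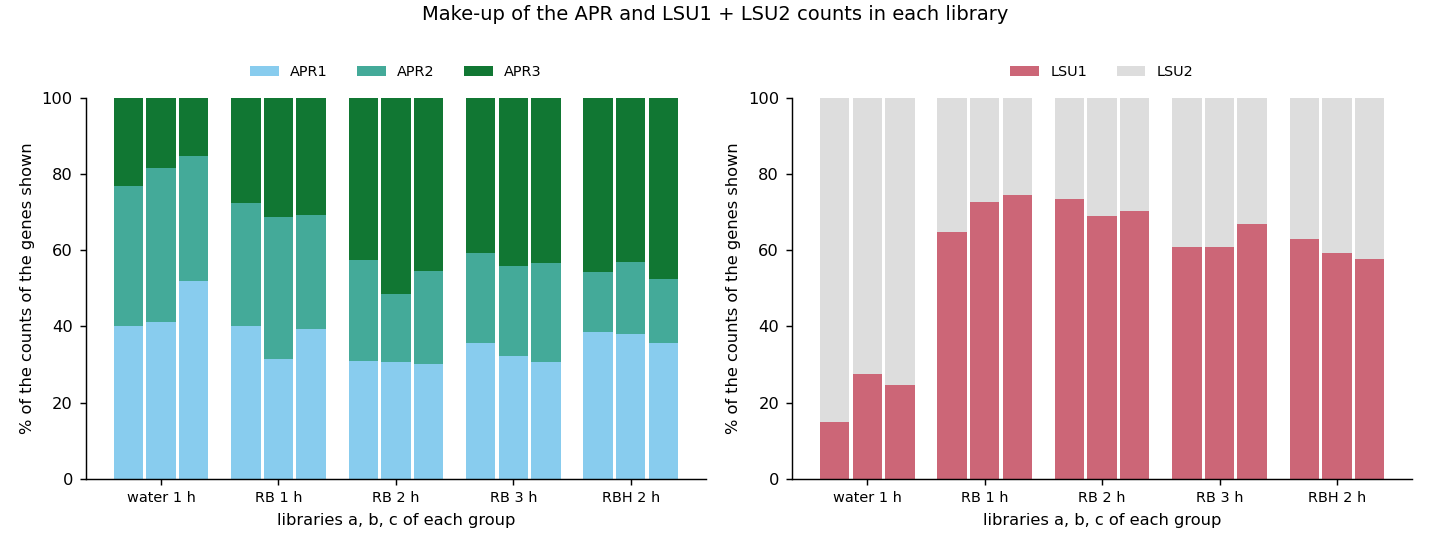
Percent of the summed counts of APR1, APR2 and APR3 (left) and of LSU1 and LSU2 (right) that each gene supplied, in each library. The APR3 part is 15.2% to 23.2% in water and 42.7% to 51.4% at RB 2 h; the LSU1 part is 14.8% to 27.6% in water and at least 57.7% in every other library.

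SULTR1;2 (AT1G78000), the main high-affinity transporter for sulfate uptake in roots, was the member that did not pass the test in any comparison. Its libraries had 19.1, 14.9 and 9.69 CPM in water, 7.19, 4.92 and 10.97 at RB 1 h, 5.04, 9.25 and 10.5 at RB 2 h, 5.75, 14.1 and 9.31 at RB 3 h, and 21.5, 12.9 and 4.93 in RBH. All groups overlapped with water, and RBH alone spanned 4.93 to 21.5 CPM. Each group summed to 50 to 76 counts. The log2 fold change over water was -0.81 at 1 h (95% interval -1.83 to 0.20, edgeR adjusted p = 0.375), -0.68 at 2 h (-1.70 to 0.33), -0.59 at 3 h (-1.58 to 0.40) and -0.26 in RBH (-1.25 to 0.72). A rise as large as that of the APR genes at 2 h or later lies outside these intervals.

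RB against water at 1 h set the dye against water at the same labelled time. LSU1 and APR3 were called higher, 2 of the 6 tested members, where 3.07% of all tested genes were called higher, and no member was called lower. The median log2 fold change was 0.16 over the 6 members and 0.02 over all 9891 genes. At RB 2 h against water, 5 of 6 were called higher (12.6% of all genes), with a median of 1.88 beside 0.04. At RB 3 h the count was again 5 of 6 (16.2%), with a median of 2.35 beside 0.01. RBH against water also gave 5 of 6 (14.4%), with a median of 3.80 beside 0.04. These 4 comparisons share the water libraries. Since the filter kept SDI1 out and the 3 loci without a row are missing, none of these counts covers the whole list.

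**Figure D3:**
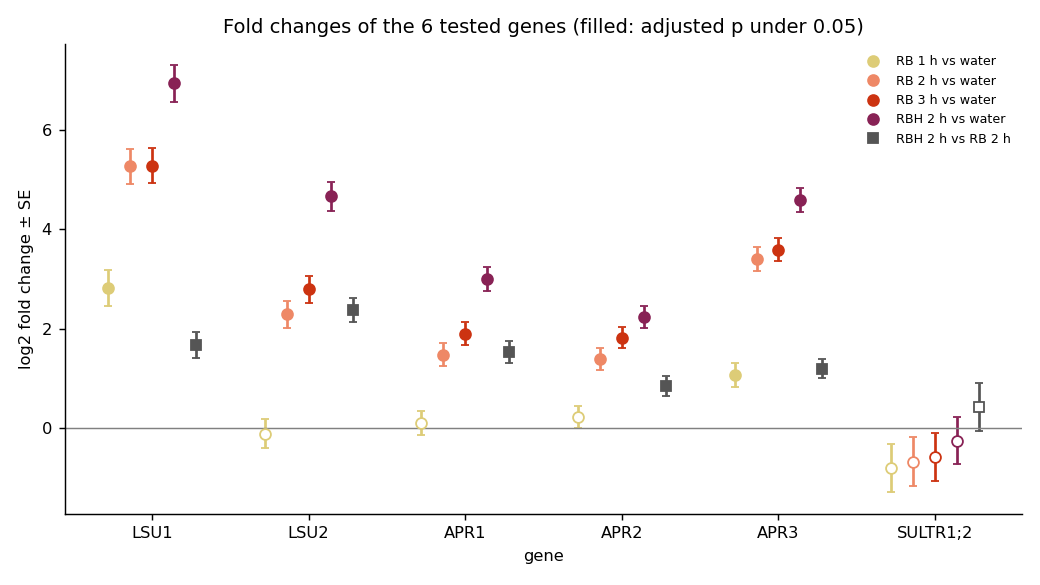
Log2 fold change ± SE of the 6 tested genes in the 4 comparisons with water (circles) and of RBH against RB at 2 h (squares); filled symbols have adjusted p under 0.05. LSU1 and APR3 alone are filled at RB 1 h, 5 genes are filled in each later comparison, and SULTR1;2 has unfilled symbols throughout.

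The dye time course was also tested step by step. From RB 1 h to RB 2 h, 5 of the 6 rose, where 5.63% of all genes were called higher. The steps were 2.46 for LSU1 (SE 0.28, edgeR adjusted p = 2.68e-06), 2.41 for LSU2 (adjusted p = 1.39e-06), 2.34 for APR3 (adjusted p = 7.85e-08), 1.38 for APR1 (adjusted p = 0.000208) and 1.17 for APR2 (adjusted p = 0.000539) on the log2 scale. From RB 2 h to RB 3 h no member was called by edgeR or DESeq2, and 0.222% of all genes were called by edgeR. In that step APR2 and LSU2 had an unadjusted p under 0.05 (0.0411 and 0.0452) with log2 fold changes of 0.44 and 0.51. For LSU1 the interval ran from -0.53 to 0.55 around 0.01, and for APR3 from -0.21 to 0.60 around 0.19.

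RBH against RB at 2 h set the combined treatment against the dye at a matched time; the groups differ in H2O2 and in the label of the dye (MRB against RB). LSU2, LSU1, APR1, APR3 and APR2 were called higher in RBH, 5 of 6 members, where 9.82% of all genes were called higher. LSU2 differed most, with 155 ± 11.6 CPM after RB and 803.5 ± 101 CPM in RBH (log2 difference 2.38, SE 0.25, edgeR adjusted p = 6.01e-07), followed by LSU1 (1.67, SE 0.26, adjusted p = 0.000136) and APR1 (1.53, SE 0.22, adjusted p = 3.56e-05). APR3 rose by 1.19 (SE 0.20, adjusted p = 0.000173) and APR2 by 0.85 (SE 0.20, adjusted p = 0.0048). In these 5 genes every RBH library lay above every RB 2 h library, as was the case, upward, in 16.4% of all genes. The APR2 call was lost without RBH replicate b (0.61, adjusted p = 0.0581), with adjusted p of 0.00181 to 0.0581 over the alternatives. SULTR1;2 differed by 0.42 (95% interval -0.57 to 1.42, adjusted p = 0.601). H2O2 alone was not analysed here, and the parts of H2O2 and of the dye labelled MRB cannot be told apart in RBH.

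The rest of the pathway was read from 6 lists with 48 genes besides the members, of which 41 had a row and 32 were tested. Of these 32, 4 were called higher and 2 lower at RB 1 h, 10 and 2 at RB 2 h, 12 and 3 at RB 3 h, and 14 and 4 in RBH, each against water. Of all genes, 3.07%, 12.6%, 16.2% and 14.4% were called higher and 2.32%, 12.2%, 16.6% and 12.6% lower in these 4 comparisons. In RBH against RB 2 h, 9 were called higher and 2 lower, where 9.82% of all genes were called higher and 6.97% lower. The median log2 fold change of the 32 was 0.65 at RB 2 h and 0.92 in RBH against water, and 0.11 in RBH against RB 2 h.

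In transport, SULTR4;1, which lets sulfate out of the vacuole, was the only other transporter with enough counts. It rose from 5.40 ± 1.53 CPM in water to 12.65 ± 1.29 at RB 2 h (edgeR adjusted p = 0.0122). In sulfate activation and reduction, 2 of 7 tested genes rose at RB 2 h, where 12.6% of all genes did. APS1, a plastid ATP sulfurylase, went from 363 ± 80.7 to 1090.5 ± 273 CPM (log2 fold change 1.59, adjusted p = 1.8e-05). APS3, another ATP sulfurylase, went from 17.6 ± 2.04 to 53.2 ± 10.3 CPM (1.61, adjusted p = 0.000534) and to 238 ± 66.4 CPM in RBH. In RBH against RB 2 h, 4 of the 7 were called higher (9.82% of all genes), among them APS3 (2.15, adjusted p = 6.37e-06), SIR, the sulfite reductase, from 205 ± 7.04 to 319 ± 50.1 CPM (adjusted p = 0.00901), and APK2. APK2, an APS kinase that diverts activated sulfate to sulfated products such as glucosinolates, fell at RB 1 h from 128 ± 18.5 to 58.9 ± 9.89 CPM (-1.11, adjusted p = 0.00114) and stood at 239 ± 24.1 CPM in RBH. APS4, a further ATP sulfurylase named here after its values were seen, was called lower at RB 3 h and in RBH against water, with 296 ± 15.8 CPM in water, 194 ± 16.2 at RB 3 h (adjusted p = 0.00872) and 177 ± 14.6 in RBH (adjusted p = 0.00201).

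In cysteine synthesis, 2 of 8 tested genes rose at RB 2 h (12.6% of all genes), and both encode serine acetyltransferases. SERAT2;1 of plastids rose from 130.4 ± 27.2 to 969 ± 128 CPM (2.89, edgeR adjusted p = 6.73e-09) and was already higher at RB 1 h, at 290.1 ± 75.3 CPM (1.15, adjusted p = 0.00398). SERAT2;2 of mitochondria rose from 231 ± 20.2 to 510.5 ± 28.8 CPM and reached 985 ± 210.2 CPM in RBH. In the glutathione list, 2 of 8 rose at RB 2 h, beside the same 12.6% of all genes. GSH1, the rate-limiting enzyme of glutathione synthesis, rose from 423 ± 61.0 to 859.7 ± 145 CPM (1.02, adjusted p = 0.00016) and stood at 1345 ± 157 CPM in RBH. GGT1, a gamma-glutamyl transferase that breaks down glutathione outside the cell, rose from 10.7 ± 4.35 to 45.7 ± 3.28 CPM (2.08, adjusted p = 4.04e-06) and stood at 32.4 ± 3.29 CPM in RBH.

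Of the 3 other starvation genes tested, 1 was called higher at RB 2 h against water (12.6% of all genes). In RBH against RB 2 h, 2 of the 3 were called higher (9.82% of all genes). LSU3 (AT3G49570), beside LSU1 on the chromosome, rose from 4.35 ± 3.28 CPM in water to 14.4 ± 6.43 at RB 1 h (edgeR adjusted p = 0.0175). It reached 107 ± 26.2 CPM at RB 2 h (adjusted p = 6.72e-09) and 296 ± 42.5 CPM in RBH. LSU4, beside LSU2, stood at 4.42 ± 0.396 CPM in water and 7.55 ± 2.46 at RB 2 h, where it was not called (adjusted p = 0.23). LSU4 had 40.8 ± 11.6 CPM in RBH and rose there against RB 2 h (adjusted p = 3.22e-05). SDI2, named here after its values were seen, had 17.4 ± 0.783 CPM in water and 30.35 ± 10.4 at RB 2 h (adjusted p = 0.135). In RBH SDI2 had 37.9 ± 16.0 CPM, called higher against water (adjusted p = 0.0169) but not against RB 2 h (adjusted p = 0.457). Of the regulators, SLIM1, the transcription factor known to drive the sulfur starvation response, rose from 18.6 ± 3.70 to 38.5 ± 14.9 CPM at RB 2 h (0.96, adjusted p = 0.0162) and to 71.3 ± 13.7 in RBH. MYB51, which activates indole glucosinolate synthesis, rose from 8.08 ± 1.42 to 69.7 ± 17.4 CPM at RB 2 h (adjusted p = 1.67e-07). MYB28, which activates the synthesis of aliphatic glucosinolates, fell from 42.4 ± 6.57 to 11.5 ± 3.15 CPM (adjusted p = 7.8e-06). A further MYB factor, MYB34, fell from 172 ± 6.33 to 70.8 ± 9.15 CPM (adjusted p = 0.00101). These levels do not give the direction of indole or of aliphatic glucosinolate synthesis, which was not tested. HY5, a light-signalling factor known to bind APR genes, fell in RBH against RB 2 h from 187 ± 19.9 to 108 ± 10.3 CPM (adjusted p = 0.00386).

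**Figure D4:**
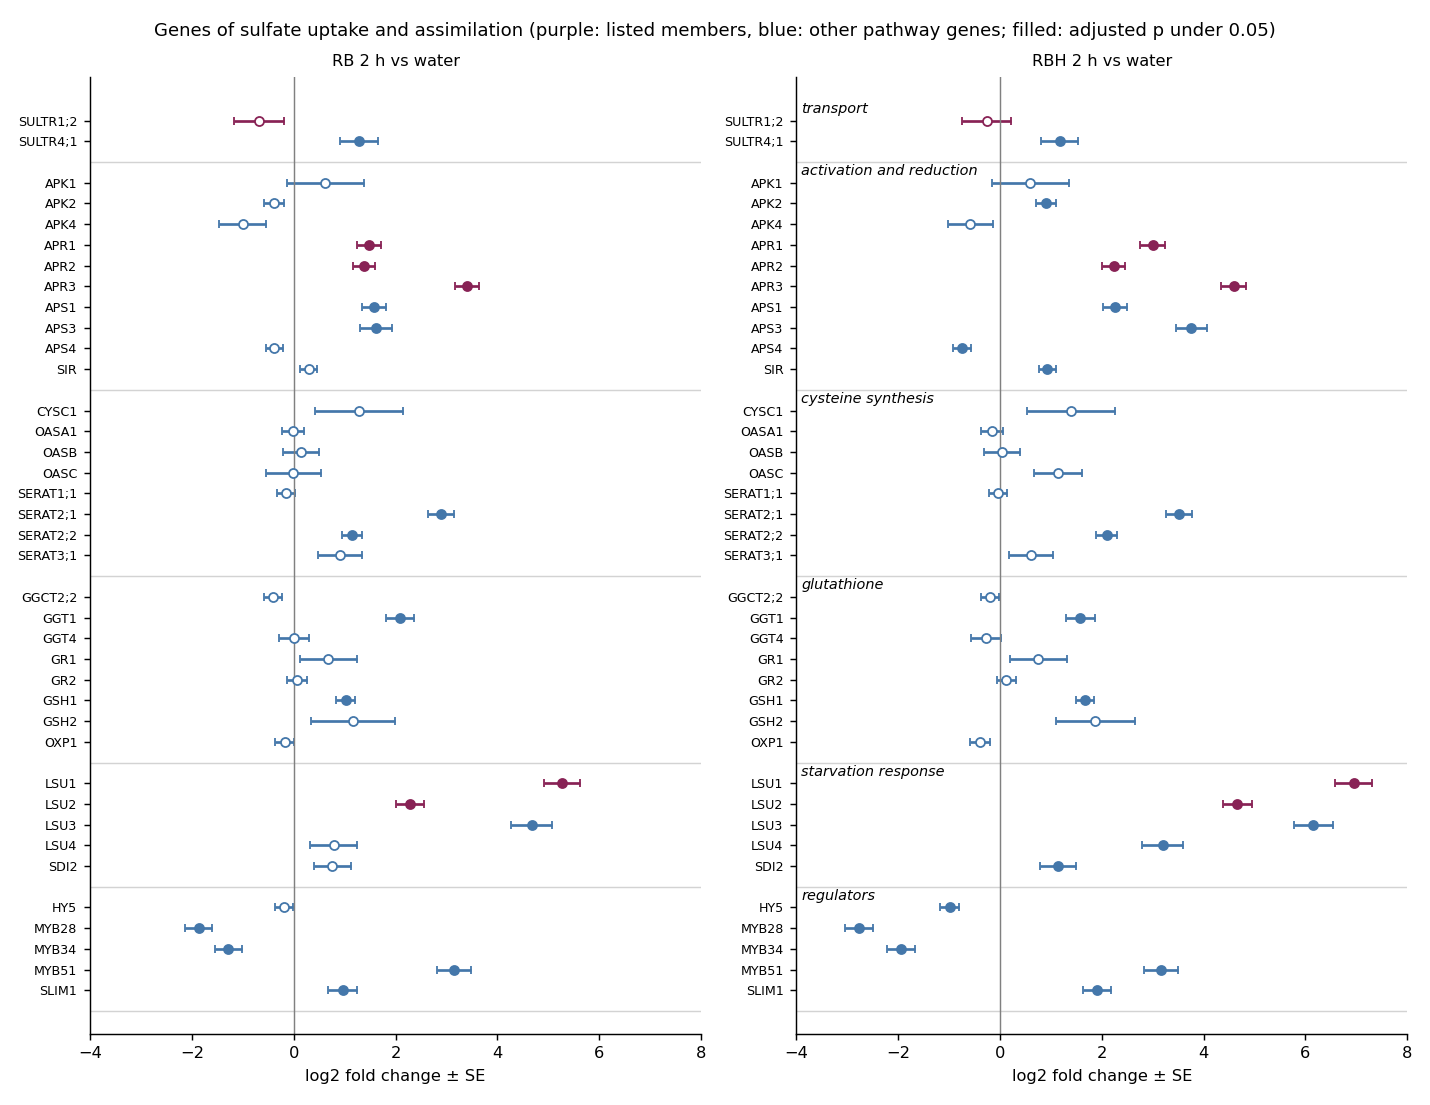
Log2 fold change ± SE of all tested genes of the 6 pathway lists at RB 2 h (left) and in RBH (right), both against the same water libraries. Purple marks the members and blue the 32 other genes, and filled symbols have adjusted p under 0.05. The LSU and APR genes, SERAT2;1, APS1 and APS3 lie right of 0 in both panels, MYB28 and MYB34 left of it.

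Across the 15 libraries the log2 CPM of APR1 and LSU2 had a Pearson r of 0.99, and that of APR3 and LSU1 0.96. These values mostly carry the differences between groups. After each group's mean was taken out, r was 0.84 for APR1 with LSU2 and 0.03 for APR3 with LSU1. These were the highest and the lowest within-group values among LSU1, LSU2 and the APR genes. The other pairs of these genes ran from 0.34 (APR2 with LSU1) to 0.755 (LSU1 with LSU2). Over the 15 libraries, without group means taken out, SULTR1;2 had r between -0.20 and 0.02 with the other 5. Of the 9885 tested genes outside the list, those most like LSU1 over the 15 libraries were AT4G26120 (r = 0.99), AT2G44578 (0.98) and the glutathione transferase gene GSTF3 (0.98). Most like APR3 were AT4G01870 (0.99), BBX28, a B-box zinc finger protein (0.98), and LSU3 (0.98). For SULTR1;2 they were UAP56b (0.78), PAS2 (0.77) and ACP1 (0.77). All of these share libraries, depth and scaling, and are a description.

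The authors' deposited table also carries a mark for genes past a threshold of its own. In the authors' deposited table LSU1 and APR3 are marked at RB 1 h against water, and LSU1, LSU2, APR1, APR2 and APR3 at RB 2 h and at RB 3 h, the same members that edgeR called. For RBH against water the authors' deposited table marks those 5 and SDI1, with an adjusted p of 0.000676 for SDI1. For RBH against RB 2 h the authors' deposited table marks 5 members, with SDI1 (adjusted p = 0.000501) among them and APR2 (adjusted p = 0.00235) not marked.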

How the data were processed

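RNA of roots was counted per gene from MARS-seq libraries. The authors deposited whole-number counts for each gene, with bcl2fastq, cutadapt, STAR 2.4.2a, HTSeq and DESeq2 named in the submitters' processing notes. No source used here states the genome build, the strand setting or the use of molecular identifiers. The authors' deposited log2 fold changes and adjusted p-values were read with the sign as deposited, first-named group over second, and serve only for the marks. Another 30 columns of per-library values were not used. All 15 libraries entered 1 fit with edgeR 4.0.16 (R 4.3.3; TMM scaling, filterByExpr on 5 groups, robust quasi-likelihood test, two-sided), with Benjamini-Hochberg adjustment over 9891 genes and calls at adjusted p under 0.05. The SE of a log2 fold change was derived from that test, as its absolute value divided by the square root of the F statistic. The 95% intervals of log2 fold changes use this SE with a t quantile. CPM used TMM-scaled totals, and log2 CPM a prior count of 2. DESeq2 1.42.0, RLE size factors, no filter, the 2 groups alone, a replicate block, 1 library left out and the 2 libraries apart left out were alternatives. The code was tested on simulated data. Members and lists were chosen with earlier results of these data known. Besides the members, the called genes with the smallest p were named, at most 3 a list in each of RB 2 h against water and RBH against RB 2 h. APS4 and SDI2 were added after their values were seen. The labels give biological replicates of pooled seedlings, and replicate letters did not pair the libraries. LSU1, APR3 and SULTR1;2 were given the 3 most alike genes by Pearson r. Promoter windows and neighbours came from RefSeq TAIR10.1 by locus.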

Additional observations from a re-analysis of the deposited data

How the results depend on the processing

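Over the alternatives, 882 values of the 6 members tested in the fit of all libraries were recomputed, of which 860 kept direction and side of the threshold. SDI1, which was not tested in that fit, is not among them. The 3 lost calls were APR3 at RB 1 h against water without water replicate b or c, and APR2 in RBH against RB 2 h without RBH replicate b, as given above. Another 19 values changed sign, and none of them was called in either fit. With 1 library left out, these log2 fold changes ran over -0.077 to 0.418 for APR1 and -0.42 to 0.48 for LSU2 at RB 1 h against water, and for SULTR1;2 over -0.82 to 0.26 in RBH against water, -0.15 to 0.89 in RBH against RB 2 h, -0.066 to 0.437 from RB 1 h to 2 h and -0.29 to 0.45 from RB 2 h to 3 h. For LSU1 from RB 2 h to 3 h they ran over -0.29 to 0.17, with -0.029 in the replicate block. Without the 2 libraries apart, LSU2 at RB 1 h was 0.011 and SULTR1;2 from RB 2 h to 3 h was -0.094. The count of members called at RB 1 h against water was 1 to 2 with 1 library left out. With a replicate block, members called were 2 at RB 1 h and 5 in RBH against RB 2 h, and the block changed no member's call. The 21 same-letter pairs of libraries had correlations of -0.229 to 0.271, with 3 over 0.1. Over all genes, RB 1 h against water gave 533 calls, 1104 without the 2 libraries apart on the third component, and 296 to 765 with 1 library left out. RBH against RB 2 h gave 1660, and 1067 in a fit of those groups alone. RB 2 h against RB 1 h gave 968, and 577 in such a fit. RB 3 h against RB 2 h gave 22, 9 with the block, 42 with no filter, 100 by DESeq2 and 0 to 49 with 1 library left out. The causes were not tested. Whether SDI1 was tested at all changed with the setting. It was called in RBH against water and against RB 2 h with no filter and by DESeq2. With the block, RLE size factors or the 2 groups alone, SDI1 did not pass the filter. Depth limits SDI1 and SULTR1;2, since 3 counts were worth 0.528 to 3.58 CPM.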
